A study of Mus musculus with 4 samples.

Results

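Mdn1 encodes midasin, the very large AAA+ ATPase that pulls assembly factors off precursors of the large ribosomal subunit, and its transcript carried 126 of the 30763 eIF4A3 peaks listed for mouse embryonic stem cells. The members are all plus-strand peaks that lie wholly between 32743 and 32863 kb on chromosome 4 of mm9, the span of the gene. The gene was chosen because it holds so many peaks, so their number, fold changes and p-values are given as a description and were not tested. The peak list combines 2 eIF4A3 eCLIP libraries and 2 input libraries of the J1 embryonic stem cell line, strain 129S4/SvJae. In eCLIP, ultraviolet light fixes a protein to the RNA it touches, an antibody to the protein (here eIF4A3) recovers that RNA, and an input library made without the pull-down serves as the reference. Cells of both groups were grown without feeders in serum with leukemia inhibitory factor and received 400 mJ/cm2 of 254 nm light before collection. All libraries come from 1 cell line.

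Midasin is known from yeast, where it is called Rea1, as a motor with a ring of AAA+ modules at the amino-terminal side, a long linker and tail, and a MIDAS domain at the carboxyl end that grips its substrates. Its mRNA is long and is pieced together from many short exons. eIF4A3 is the DEAD-box helicase that clamps the exon junction complex onto spliced RNA a short, fixed distance upstream of each exon junction. A transcript with many junctions thus offers many deposition sites, and the last exon, which has no junction downstream of it, offers none of that kind.

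Each peak has a log2 fold change and a −log10 p, both the authors' deposited values, with no value per library. No spread between replicates can be given, the read depth behind a peak is unknown, and the direction of the fold change is not stated in the sources used here. The label was checked against gene structure, because the list has no gene names and is on mm9, whereas the gene models used here (GENCODE M21) are on GRCm38. In all, 128 plus-strand coding genes of chromosome 4 were tried, and the length filter let in genes shorter than the stretch of the peaks. The Mdn1 exons took 100% of the bases under peaks when slid along the list in 1 piece, and the next best gene, Ubr4, took 26.4%. A gene too short to hold all the peaks cannot reach 100%, and the part of gene length in this gap was not tested. The distance between list and model was set without Mdn1: the 20 peaks listed within 1 Mb of the span, in Map3k7 (6 peaks) and Rngtt (14 peaks), best met annotated exons when the model was moved up by 86975 nt, with 99.4% of their bases in exons. The Mdn1 peaks by themselves gave the same 86975 nt, and no distance more than 1000 nt away placed over 26.9% of their bases in exons. This 1 constant places exon edges to the base within the gene, and peak positions below remain those of the list.

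The sequences of the exons on which the results turn are shown from the annotated transcript Mdn1-201 in GENCODE M21, plus strand of GRCm38. Exons 37, 27, 35, 3 and 43 hold the 5 peaks with the highest fold change, exon 22 is the exon most fully covered, and exon 57 is a long exon without a peak. Capitals mark the bases under a peak, each line runs 5′ to 3′ from the first to the last base of the exon, and exon junctions lie at both ends of every line.
Mdn1 exon 3, chr4:32666393-32666617: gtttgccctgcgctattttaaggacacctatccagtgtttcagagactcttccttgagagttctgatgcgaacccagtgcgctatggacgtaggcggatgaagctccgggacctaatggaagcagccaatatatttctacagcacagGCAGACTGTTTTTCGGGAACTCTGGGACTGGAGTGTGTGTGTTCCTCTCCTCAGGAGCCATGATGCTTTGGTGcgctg
Mdn1 exon 22, chr4:32691714-32691824: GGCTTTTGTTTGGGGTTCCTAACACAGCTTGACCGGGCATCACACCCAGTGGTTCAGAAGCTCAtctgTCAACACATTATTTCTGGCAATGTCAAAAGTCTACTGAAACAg
Mdn1 exon 27, chr4:32698771-32698912: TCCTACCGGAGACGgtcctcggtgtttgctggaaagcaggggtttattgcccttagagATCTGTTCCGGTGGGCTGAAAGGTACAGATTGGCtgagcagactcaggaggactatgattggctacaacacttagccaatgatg
Mdn1 exon 35, chr4:32708403-32708600: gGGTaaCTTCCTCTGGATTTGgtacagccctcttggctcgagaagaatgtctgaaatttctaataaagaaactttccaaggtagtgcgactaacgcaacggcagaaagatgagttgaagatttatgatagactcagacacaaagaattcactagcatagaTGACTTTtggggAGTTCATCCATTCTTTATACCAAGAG
Mdn1 exon 37, chr4:32710262-32710384: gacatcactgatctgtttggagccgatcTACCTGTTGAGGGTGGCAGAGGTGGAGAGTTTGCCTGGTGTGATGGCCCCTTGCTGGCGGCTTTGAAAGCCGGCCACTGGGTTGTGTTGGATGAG
Mdn1 exon 43, chr4:32716246-32716507: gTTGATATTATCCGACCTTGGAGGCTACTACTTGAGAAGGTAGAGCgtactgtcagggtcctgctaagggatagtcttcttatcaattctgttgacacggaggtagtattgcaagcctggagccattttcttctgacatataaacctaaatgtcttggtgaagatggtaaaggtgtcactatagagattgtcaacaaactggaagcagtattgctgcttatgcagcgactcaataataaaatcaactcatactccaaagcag
Mdn1 exon 57, chr4:32730756-32730984: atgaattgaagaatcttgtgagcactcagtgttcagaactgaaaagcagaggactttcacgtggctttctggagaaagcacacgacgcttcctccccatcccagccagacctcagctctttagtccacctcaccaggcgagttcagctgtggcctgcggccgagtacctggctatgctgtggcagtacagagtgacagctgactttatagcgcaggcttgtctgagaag
In exon 37 the capitals run to the last base, in exon 27 they open the exon, and in exon 22 only 5 bases are left in lower case. The reference strain is not the strain of the cells, and bases that differ between them are not marked here.

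The peaks fell on exons without exception. All 126 peaks lay wholly inside an annotated exon, although exons make up 15.2% of the 118089 nt gene. The peaks joined into 79 sites when peaks no more than 50 nt apart were merged, and 44 of these sites were single peaks, 28 were pairs and 7 held 3 or more peaks. No site could cross an intron, since all peaks lay in exons and the shortest intron, 73 nt, exceeds the 50 nt used for joining. Joining was by genome position, so peaks that adjoin across a junction in the spliced transcript count as separate sites. The peaks at the end of exon 37 and the start of exon 38 are an example. The number of sites, and of sites with a single peak, therefore depends on this choice. The sites had a median width of 45 nt, and the peaks covered 3507 of the 17970 nt of the spliced transcript (19.5%). No peak was listed on the minus strand of the span. The nearest plus-strand peaks outside the gene lay 677411 nt upstream (8.47-fold) and 537047 nt downstream (6.05-fold), so the boundary of the span separated nothing close.

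**Figure D1:**
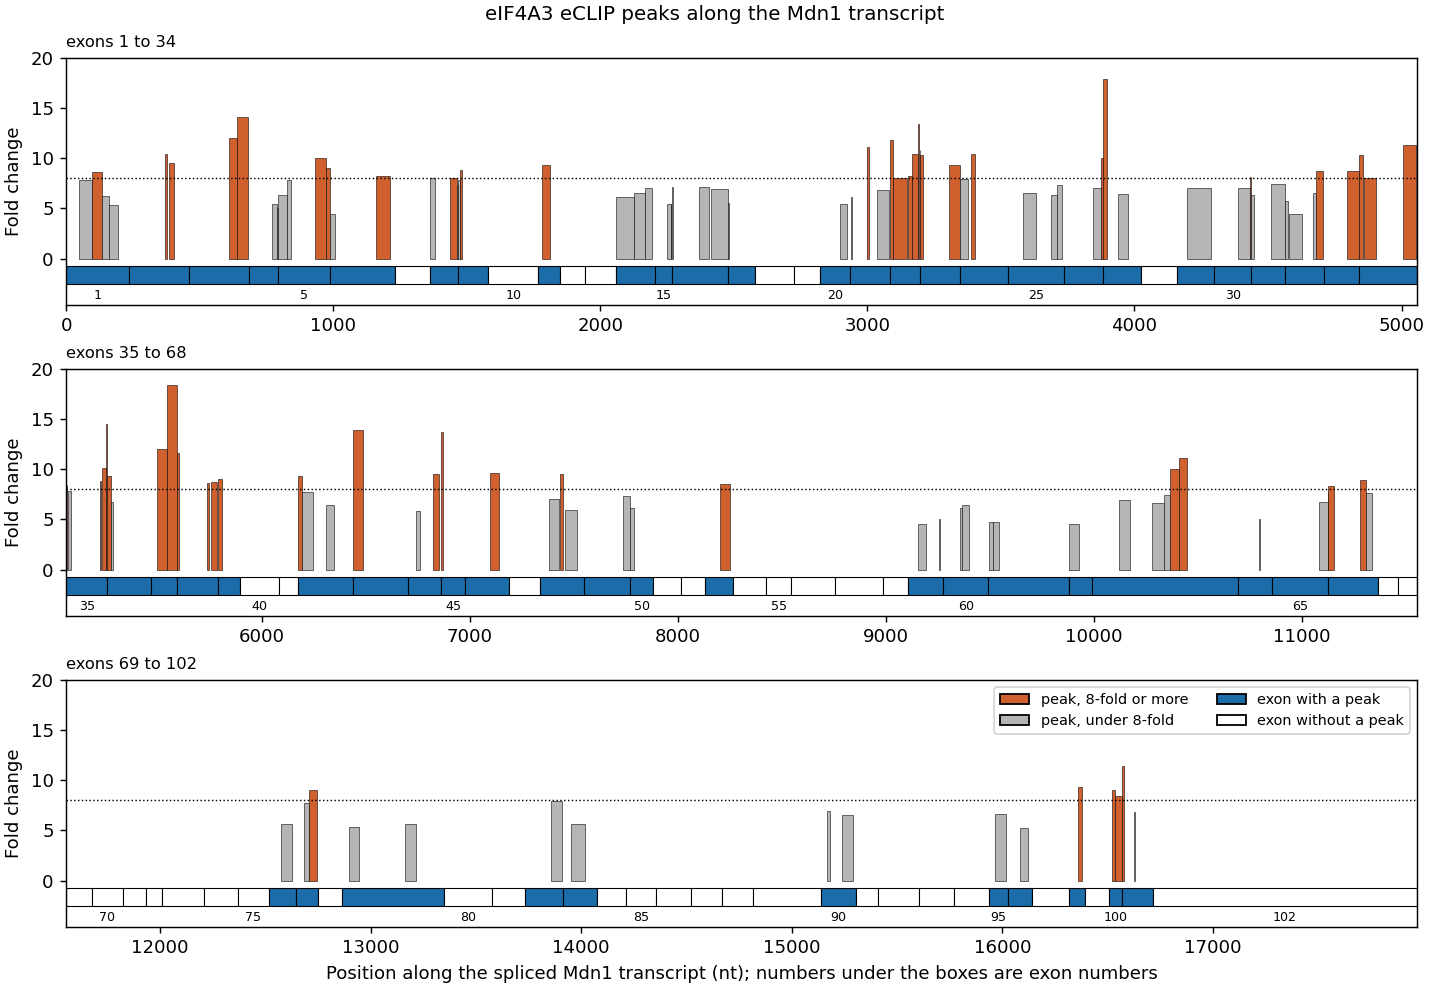
Fold change of each of the 126 peaks (vertical axis, linear, dotted line at 8-fold) by position along the spliced transcript in nt, in 3 panels from exon 1 to exon 102; bar width is peak width, and boxes are exons, filled where they hold a peak. The panels hold 65, 45 and 16 peaks from top to bottom, and the long exon 102 is empty.

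Of the 102 exons, 60 (58.8%) carried at least 1 peak. Of those, 41 had 1 site and 19 had 2, and none had more. The exons with the most peaks were 22, 35 and 63, with 5 each. Exon 22, of 111 nt, had 95.5% of its bases under peaks, while exon 63, the longest internal exon at 703 nt, had 30.7%. The runs of neighbouring exons with peaks were long: exons 29 to 39, 11 in a row, each had one, as did exons 20 to 27 and exons 59 to 66. The longest empty run was exons 67 to 75, 9 in a row, followed by exons 84 to 89.

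Peaks were denser in the 5′ part of the transcript. Exons 1 to 25 had a peak in 19 of 25 cases and exons 26 to 51 in 21 of 26, against 10 of 25 for exons 52 to 76 and 10 of 26 for exons 77 to 102. In peaks per kb of exon the 4 stretches had 12.9, 10.05, 4.32 and 2.82. The median fold change of the peaks was 7.86, 8.62, 6.72 and 6.93 along the same stretches, and the median −log10 p was 23.8, 23.4, 22.8 and 23.5. At least 8-fold was reached by 21 of 48, 25 of 43, 5 of 20 and 5 of 15 peaks, beside 32.3% of the whole list. The list holds no peak under 4-fold, so weaker peaks do not enter these medians. Across the 126 peaks, Spearman's rho between position along the transcript and log2 fold change was -0.08, and -0.18 with 1 value per site. With −log10 p it was -0.10, and -0.027 without the first and last site. These are descriptions over peaks of 1 transcript, which share libraries and depth. Input coverage along the transcript was not analysed here, and its part in the thinning of peaks was not tested.

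The first exon carried 4 adjoining peaks from 32744143 to 32744285, which span nt 50 to 192 of the transcript and so cover the start codon at nt 133. Their fold changes were 7.82, 8.66, 6.21 and 5.32 from 5′ to 3′, and their −log10 p was 47.9, 45.7, 26.2 and 23.9. The upstream members of this run were therefore among the peaks with the highest −log10 p in the gene, at middling fold changes. At the other end, the last peak of the list for Mdn1 lay in exon 101, from 32860292 to 32860295, at 6.84-fold and 1339 nt before the transcript's end. The last exon had no peak in its 1257 nt, of which 186 are coding and 1071 are 3′ untranslated. It was the longest exon of the gene. The next longest exons without a peak were exons 89 (323 nt), 57 (229 nt), 80 (227 nt) and 56 (211 nt).

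Within exons, coverage by peaks was highest just upstream of the junction, but as many exons had a peak near their start as near their end. A peak was present in the last 50 nt of 41 exons and in the first 50 nt of 41 exons. The share of exons under a peak was highest 22 nt from the exon end, counting the last base as 1, where 35 of the 101 exons with a downstream junction were covered (34.7%). It was 8.91% at the last base itself, 23.8% at 10 nt, 32.7% at 30 nt, 22.8% at 50 nt and 14.4% at 75 nt. Between 15 and 35 nt from the end, a peak was present at 38 of the 101 junctions (37.6%). From the exon start the profile was flatter. Its maximum within the first 50 nt was 26.7%, at 4 nt (27 of 101 exons), and it was 11.9% at 30 nt. The placement of the model came from other genes, so the distance to the junction is a measure that did not enter the choice of Mdn1 or of its peaks.

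**Figure D2:**
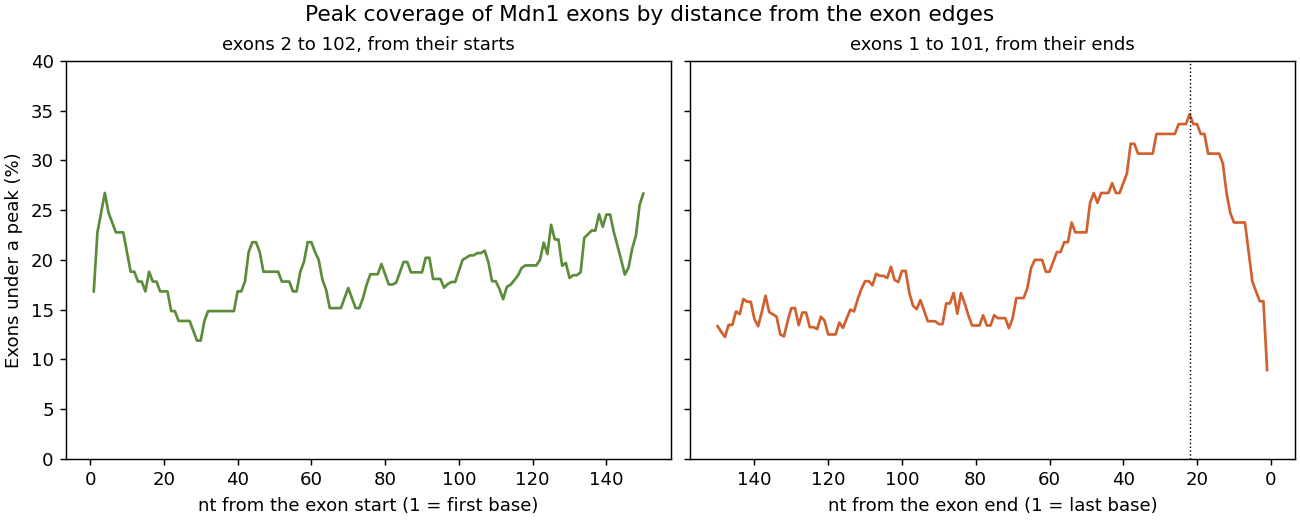
Share of Mdn1 exons under a peak (vertical axis, percent) by distance in nt from the exon start, left, and from the exon end, right. The curve from the exon end climbs to 34.7% at 22 nt (dotted line) and drops to 8.91% at the last base, while the curve from the start stays under 27%.

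Many peaks, listed by genome position, stopped or started at an exon edge. A peak began on the first base of an exon in 17 cases and within the first 4 bases in 28, and a peak ended on the last base in 9 cases and within the last 7 bases in 31. In all 9 cases of a peak ending on the last base, another began on the first base of the next exon. Such peaks adjoin in the spliced transcript, so their listed edges are not ends of coverage along the mRNA. Of the 101 junctions, 24 had a peak in both the last 50 nt of the upstream exon and the first 50 nt of the downstream exon, 17 had one on the upstream side alone, 17 on the downstream side alone, and 43 on neither side. Among the 89 internal exons of at least 100 nt, 21 had peaks at both ends, 14 at the 3′ end alone and 15 at the 5′ end alone, and 4 had peaks in the middle alone.

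The 10 peaks with the highest fold change sat mostly at such edges: 8 of the 10 reached within 6 nt of an exon start or end, against 54 of all 126 peaks (42.9%). The highest was 18.4-fold, with a −log10 p of 55.1 that was also the highest in the gene, over the last 47 nt of exon 37 (32797313 to 32797359). The peak that adjoins it upstream in the same exon, from 32797265 to 32797312, had 12.1-fold and a −log10 p of 41.5. The peak in second place, 17.9-fold, covered the first 14 nt of exon 27 (32785746 to 32785759), whereas the other peak of that exon had 6.44-fold, the widest spread within any exon of the gene. Across the junction, the last 6 nt of exon 26 had 10.01-fold.

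The third was 14.5-fold over the last 7 nt of exon 35, from 32795569 to 32795575. It adjoined, across the junction, a peak of 9.36-fold over the first 15 nt of exon 36. Next came exon 3, with 14.1-fold from 32753548 to 32753587 beside an adjoining peak of 12.1-fold, and a −log10 p of 52.8 and 49.7. In exon 3 the capitals of the printed sequence stop 5 bases short of the junction. Exon 43 had a single peak, 14.0-fold, from its second base on (32803222 to 32803266), and exon 45 a single one of 9 nt at its first bases, 13.7-fold (32806142 to 32806150). Exon 22 held the remaining 2 of the 10, 13.4-fold over 5 nt ending next to its last base and 11.9-fold over its first 13 nt, with 3 peaks of 8.04-fold to 10.4-fold between them.

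A high −log10 p did not require a high fold change. In exon 14, of 149 nt, 3 adjoining peaks from 32765276 to 32765410 had 6.19-fold, 6.56-fold and 6.997-fold, with a −log10 p of 48.1, 39.9 and 32.1. The widest peak of the gene, 88 nt of exon 29 (32786444 to 32786531), had 7.08-fold and a −log10 p of 42.6. In exon 5 the 42 nt from 32754384 to 32754425 had 10.02-fold and a −log10 p of 50.6, and the adjoining 14 nt up to the junction had a −log10 p of 38.4.

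Low fold changes stood close together in the middle, in exons 59, 61 and 62. Exon 59 had peaks of 4.57-fold and 5.04-fold, and the −log10 p of 11.2 of the second was the lowest in Mdn1. Exon 61 had 4.72-fold and 4.71-fold near its start, and exon 62 had 4.51-fold, while exon 60 between them had 6.16-fold and 6.41-fold. Single weak peaks also stood inside strongly marked stretches: the lowest fold change of the gene, 4.45, belonged to the first 21 nt of exon 6 (32755774 to 32755794), whose other peak, upstream of its junction, had 8.24-fold.

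Toward the 3′ end the peaks were few, and several of them lay close to a junction. Exon 77 had 7.78-fold and 9.08-fold in 2 adjoining peaks that ended 6 nt before its last base (32834861 to 32834918). Exon 82 had 7.90-fold in a peak that also ended 6 nt before the last base (32838311 to 32838362), and exon 76 had 5.67-fold in a peak ending 19 nt before it. Further on, exons 95, 96 and 98 had 1 peak each near the 3′ end, of 6.65-fold, 5.29-fold and 9.31-fold. Exon 100, of 64 nt, was covered up to its last base by peaks of 9.08-fold and 8.48-fold (32858827 to 32858875), and the first 5 nt of exon 101 had 11.4-fold. The junction between exons 100 and 101, the last but 1 of the gene, thus had peaks on both sides. Others lay farther off. Exon 79, of 483 nt, had peaks of 5.36-fold and 5.64-fold that ended 404 and 133 nt before its last base, and exon 83 had 5.68-fold in a peak that ended 60 nt before it. The second peak of exon 101 ended 82 nt before the last base. Exon 90 had 6.93-fold in a peak with 123 nt of the exon after it and 6.57-fold in one with 17 nt after it.

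Not all strong peaks were at edges. In exon 63 a run of 4 adjoining peaks from 32822460 to 32822624 climbed along the strand, at 6.66-fold, 7.43-fold, 9.98-fold and 11.1-fold, and 246 nt of the exon followed its last base. By position, 51 peaks had their centre in the last 50 nt of an exon, 40 others in the first 50 nt, and 35 elsewhere. Their median fold changes were 8.02 (log2 quartiles 2.77 and 3.18), 7.97 (2.66 and 3.26) and 6.95 (2.63 and 3.20), ranges that overlap widely. Peaks at exon starts were the narrowest, with a median width of 15 nt, against 28 nt at exon ends and 36 nt elsewhere.

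**Figure D3:**
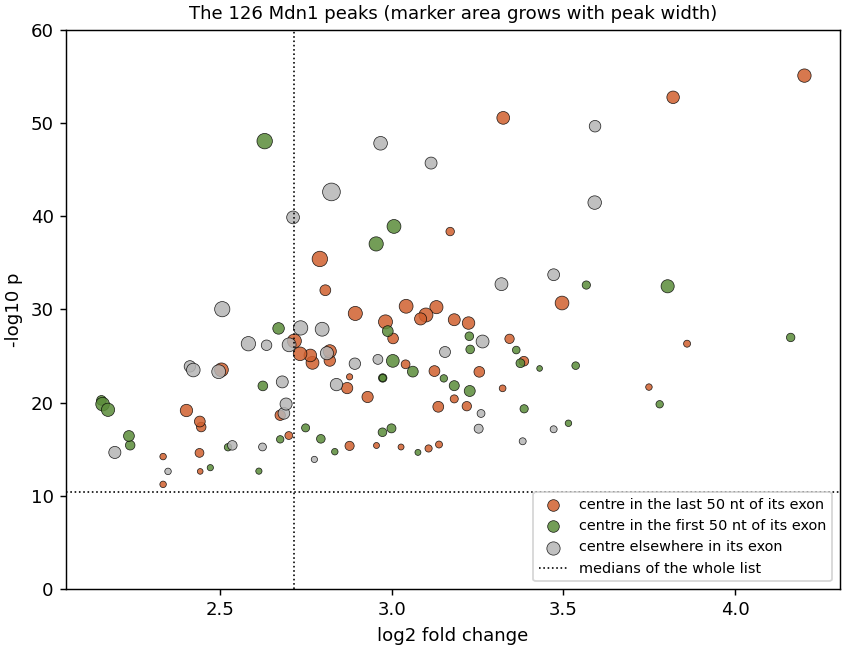
The 126 Mdn1 peaks by log2 fold change (horizontal) and −log10 p (vertical), coloured by where the peak's centre lies in its exon, with dotted lines at the medians of the whole list (2.72 and 10.4). All Mdn1 peaks lie above the list's median −log10 p, and the top right point is the 3′ end of exon 37.

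Over the gene, fold changes ran from 4.45 to 18.4 with a median of 7.80 (log2 quartiles 2.68 and 3.23), and 56 of the 126 peaks (44.4%) reached 8-fold with p at most 0.001, where 32.3% of the whole list did. Since the gene was chosen from the same values, nothing is read from that difference. The −log10 p ran from 11.2 to 55.1 with a median of 23.4, and all 126 peaks lay above the median of the list, 10.4. Within Mdn1, wider peaks had higher −log10 p (Spearman's rho of 0.67 over 126 peaks), and the rho between log2 fold change and −log10 p was 0.39. Per exon, the highest fold change ran from 4.51 in exon 62 to 18.4 in exon 37, with a median of 8.77 and quartiles of 6.86 and 10.1. In the 40 exons with more than 1 peak, the highest fold change was a median of 1.17 times the lowest.

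Exon lengths overlapped between exons with and without peaks. The 59 internal exons with a peak had a median of 149 nt (quartiles 116 and 210 nt), and the 41 internal exons without one had 144 nt (116 and 168 nt). Among exons 2 to 51 the medians were 148 nt with a peak and 133 nt without, and among exons 52 to 101 they were 162 nt with a peak and 147 nt without. The longest internal exon, exon 63 (703 nt), carried peaks, and the longest internal exon without one had 323 nt. Base composition was compared in the same way. The exons with a peak had a median GC content of 49.2% (quartiles 45.3% and 52.6%), and those without had 46.9% (43.0% and 49.0%). The order was the same in both parts of the transcript: among exons 2 to 51 the medians were 46.7% with a peak and 42.9% without, and among exons 52 to 101 they were 51.7% with a peak and 47.5% without.

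Within exons, the bases under peaks were the richer in G and C. Over the gene, 54.2% of the bases under peaks were G or C, against 47.1% of the other bases of exons 1 to 101. Adenine made up 21.0% under peaks and 28.8% elsewhere, while thymine was level at 24.7% and 24.1%. The comparison can be made inside each exon for the 54 internal exons with at least 10 bases of both kinds: GC content was higher under peaks in 43 of them and lower in 10, with a median difference of 7.06 percentage points (quartiles 1.90 and 11.2). The printed exons show the spread, with 58.9% under the peaks of exon 37 and 39.2% under those of exon 35. Base composition can affect how well reads are recovered and mapped, and its part in these values was not tested.

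**Figure D4:**
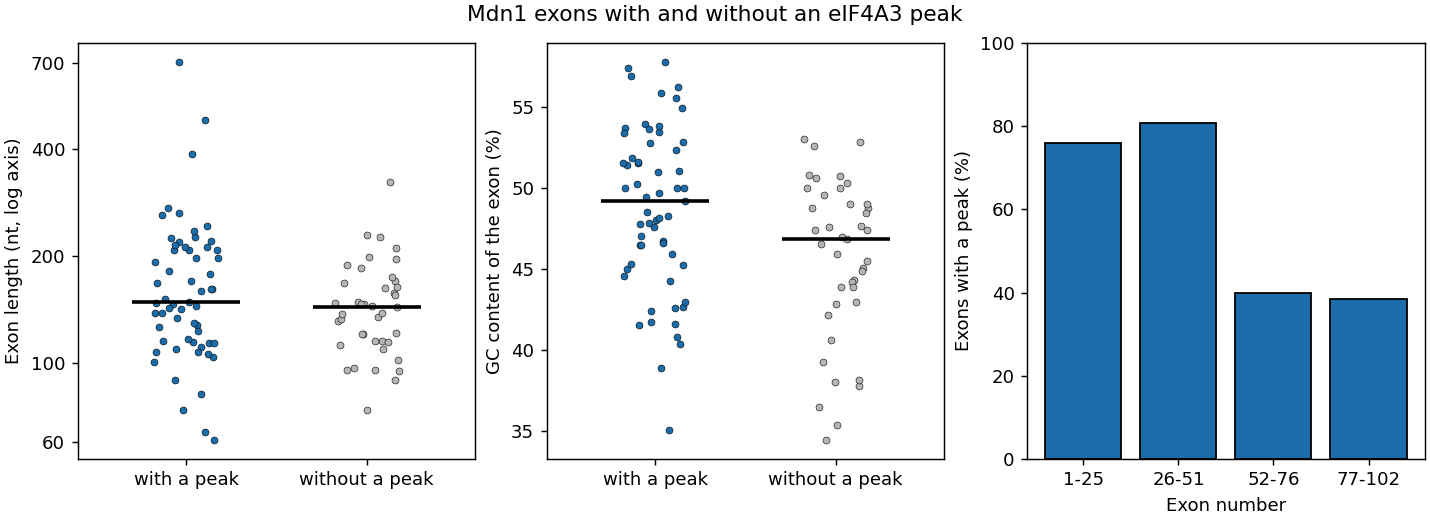
Length (left, log axis) and GC content (middle, percent) of the internal Mdn1 exons, 59 with a peak and 41 without, with 1 point per exon and bars at the medians, and the share of exons with a peak in 4 stretches of the transcript (right). The lengths overlap, the GC medians are 49.2% and 46.9%, and exons with a peak number 19 of 25, 21 of 26, 10 of 25 and 10 of 26 from the first stretch to the last.

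The 3 transcripts most like Mdn1 in number of sites were found by joining peaks within 10 kb and naming each cluster by the coding gene whose exons took its peaks under 1 constant distance. They were Huwe1 on chromosome X (79 sites, 152 peaks), Ubr4 on the plus strand of chromosome 4 (63 sites, 106 peaks) and Vps13d on its minus strand (62 sites, 118 peaks). In each, at least 99.9% of the bases under peaks lay in the exons of that gene. Huwe1 and Ubr4 encode ubiquitin ligases and Vps13d a lipid transfer protein, all very long proteins from many exons. Peaks were present in 58.8% of the exons of Mdn1, 77.1% of those of Huwe1, 49.1% of those of Ubr4 and 64.3% of those of Vps13d.

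Coverage was also measured by distance from the junction in all 4 transcripts. Within the last 50 nt of exons, coverage was highest 22 nt from the end in Mdn1 (34.7% of exons), 24 nt in Huwe1 (46.3%), 23 nt in Ubr4 (22.9%) and 17 nt in Vps13d (39.1%). These highs were broad. Coverage was 32.7% at both 18 and 31 nt in Mdn1 and 42.7% at both 10 and 40 nt in Huwe1. In Vps13d it was level from 17 to 19 nt, so the exact positions carry little weight. In Vps13d, coverage was still higher at 144 nt, at 42.9% of the exons that long, and in Ubr4 it was 19.6% at 146 nt, close to its value near the junction. None of the 4 had a peak in its last exon, which measured 1257 nt in Mdn1, 1137 nt in Huwe1, 422 nt in Ubr4 and 2647 nt in Vps13d. The thinning of peaks toward the 3′ end was not alike: exons with peaks numbered 40 of the first 51 and 20 of the last 51 in Mdn1, 30 of 41 and 34 of 42 in Huwe1, 42 of 53 and 10 of 53 in Ubr4, and 26 of 35 and 19 of 35 in Vps13d. Median fold changes were 7.80 in Mdn1, 6.22 in Huwe1, 12.0 in Ubr4 and 9.79 in Vps13d. With 1 list and no values per library, differences between these transcripts were not tested.

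**Figure D5:**
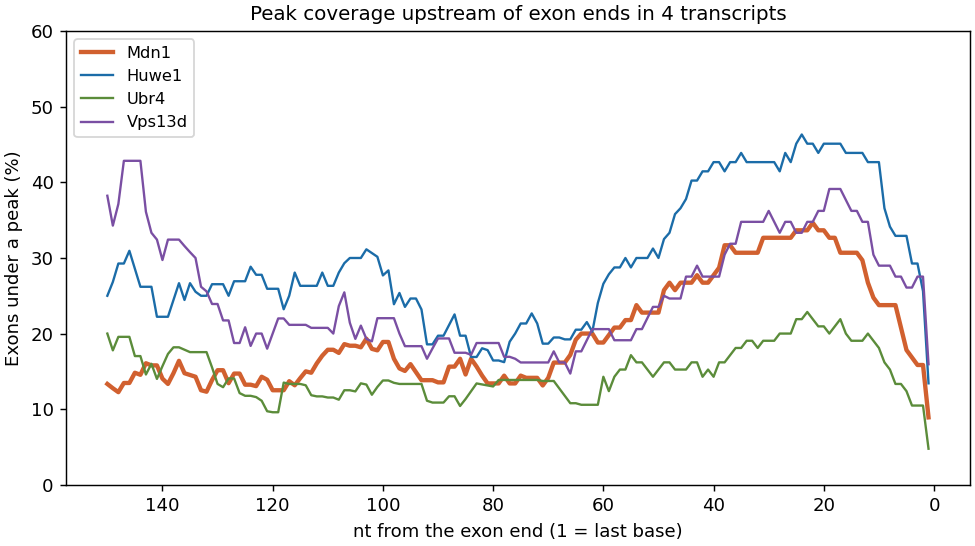
Share of exons under a peak (vertical axis, percent) by distance in nt from the exon end, for Mdn1 and the 3 transcripts nearest to it in number of sites. All 4 curves fall toward the last base, from highs of 34.7% in Mdn1, 46.3% in Huwe1, 22.9% in Ubr4 and 39.1% in Vps13d within 50 nt of it.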

How the data were processed

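The data are 1 deposited peak list for 2 eIF4A3 eCLIP and 2 input libraries, sequenced as paired reads of 50 nt per the labels' protocols. Per the submitters' processing notes, cutadapt 1.18, STAR 2.6.1b and mm9 were used, in roles left unsaid. How peaks were called and tested, and how replicates were handled, is not given in the sources used here. Both the log2 fold change and the −log10 p-value of each peak are the authors' deposited values. Depth per library is unknown.

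Start and end were both counted as part of a peak. The longest coding Mdn1 transcript of GENCODE M21 (GRCm38) was moved as a whole by 1 constant, fitted over 200 kb either way on neighbouring peaks; no coordinate was converted. Bases were read from the annotated transcript. Peaks at most 50 nt apart in the genome formed sites and those within 10 kb clusters. The named peaks are the 10 with the highest fold change, those at the transcript's ends, and the exons with most peaks or, among the longest, none; other peaks and exons named were chosen after their values were seen. Members, lists and alternatives were chosen with earlier results of these data known. No test was run, since 1 list without values per library allows none. A list of ribosome assembly genes and stem cell markers were not analysed here, since they were to be counted only with an annotation on the list's build. The placement code was run on simulated peaks set inside exons of the same model, and each planted shift was among several equally best-scoring ones. That outcome was fixed by the way the peaks were set. The run therefore checks the code and says nothing on the placement of the listed peaks. Python 3.11.15, numpy 2.4.6, pandas 2.3.3, scipy 1.17.1 and matplotlib 3.10.9 were used.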

Additional observations from a re-analysis of the deposited data

How the results depend on the processing

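No paired analysis was possible because the list has no values per library, which also means that leaving out a replicate could not be tried. The distance of 86975 nt was the same from neighbouring genes or Mdn1 alone, by overlap or by peak ends. All 79 sites met an exon under every setting tried, and without joining there were 126. At the list's own threshold all 126 peaks pass, as every listed peak does. At a log2 of 4 with −log10 p of 5, 2 pass. The share of the whole list past that cut-off is not given here, so nothing is read from this count. With peaks of log2 at least 3 alone, 36 exons carried a peak in place of 60, since fewer peaks enter. The median log2 fold change of 2.96 became 3.03 with the highest peak per site, 2.87 weighted by width and 3.25 among peaks of log2 at least 3. The distance from the centre of an exon's highest peak to the exon end had a median of 48 nt. It was 71.75 nt over every peak, 29.5 nt to the peak's 3′ end and 47.5 nt with the start read as 0-based. Settings chosen after the data were seen gave 28.75 nt for peaks nearer to the exon's end than to its start and 53.5 nt for the peak with the highest −log10 p. The median length of exons with a peak exceeded that of exons without by 5 nt, by 7 nt without the longest of each kind and by 3 nt at log2 at least 3. The rho of position with log2 fold change, -0.08, was -0.18 with 1 value per site and -0.10 without the first and last site. That with −log10 p, -0.10, was -0.13 and -0.027 in the same settings. The cause of these moves was not tested.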

Other observations

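Intron lengths were set beside the presence of a peak. The median intron upstream was 845 nt (quartiles 576 and 1400 nt) for the 59 internal exons with a peak and 550 nt (399 and 919 nt) for the 41 without. The median intron downstream was 763 nt (541 and 1332 nt) with a peak and 585 nt (385 and 1100 nt) without. Among exons 2 to 51 the median intron upstream was 938 nt with a peak and 895 nt without, and downstream 895 nt with a peak and 938 nt without, so the order turned downstream. Among exons 52 to 101 it was 726.5 nt with a peak and 537 nt without upstream, and 631 nt with a peak and 545 nt without downstream. The quartile ranges over all internal exons overlap, exons of 1 gene are not replicates, and no test was made. The exon ended in AG, the usual last bases before a splice donor, in 42 of 59 internal exons with a peak (71.2%) and in 25 of 41 without (61.0%). An exon length that keeps the reading frame, a multiple of 3, was found in 20 of 59 with a peak (33.9%) and 13 of 41 without (31.7%). Across the 100 internal exons, Spearman's rho between length and number of peaks was 0.26, a description over exons that share 1 transcript and its libraries.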
